A study of Mus musculus with 8 samples.

Results

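Many genes were represented on the arrays by more than 1 probe, and for 150 genes those probes gave different answers to the question of how strongly the mRNA was bound by Argonaute (Ago) in ES cells. Ago enrichment, E, compares the signal of 1 probe in Ago–RNA with its signal in total RNA, as a log2 ratio. A gene entered when at least 2 of its probes were well above background on both ES arrays, and the range was its highest minus its lowest E. Of 4268 genes with such probes (9457 probes), the 150 with the widest range were chosen by these ES values, and they held 385 probes. The probe with the highest E in ES cells is called the high probe, that with the lowest E the low probe, and high minus low is the pair difference, D, a log2 value. Since the ES values selected both the genes and the probes, they are given as a description and support nothing.

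The samples were E14Tg2A cells, a mouse ES cell line of strain 129/Ola, at 0, 2, 6 and 10 days of in vitro differentiation (DIV) to neural cells. The stages are ES (cultured with serum and LIF), ELA, which are floating epiblast-like aggregates, then NPC, progenitors of neural cells, and NPC/Neu, a later culture of neural precursors. The last 3 were grown without serum or LIF in a defined medium with N2 and B27, from which B27 was withdrawn for NPC/Neu. At each stage 1 one-color array was hybridized with Ago–RNA, which had been precipitated from the cytosolic fraction with a pan-Ago antibody, and 1 with total RNA of whole cells. Each of the 8 arrays held RNA pooled from 3 independent experiments, so that no condition had a replicate array, no difference could be tested, and a lower share of cells of a type and less RNA per cell cannot be told apart.

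Argonaute proteins carry microRNAs and are guided by them mostly to sites in the 3′ UTR of mature, cytoplasmic mRNAs, whose translation and stability are then reduced. A gene can give several RNAs, because transcripts may end at different polyadenylation sites, in the last exon or inside an intron, and because pre-mRNA and some processed RNAs stay in the nucleus. A 60-base probe reports only the RNAs that hold its own stretch of sequence.

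Listed stage markers were read in total RNA, on the log2 scale relative to the 75th percentile of each array. Not all of them followed the stage labels. Pou5f1, a pluripotency factor, was at 5.40 in ES, 4.74 at ELA, -2.59 at NPC and -1.99 at NPC/Neu, and Fgf5, a marker of the primed epiblast, stood at 4.43 in ELA against 1.49 in ES. Fabp7, of neural progenitors, reached 5.21 in NPC and 6.90 in NPC/Neu, and Tubb3, of neurons, reached 6.14 in NPC/Neu. Stmn2, also listed for neurons, was already at 4.46 in ES, then 3.46 at ELA, 3.40 at NPC and 5.11 at NPC/Neu. Otx2, listed for the primed epiblast, stayed between 5.57 and 6.31 at all stages. Of the 7 listed mesendoderm markers, T and Foxa2 rose from -4.11 and -5.89 in ES to -0.50 and -0.99 at NPC. Sox17 rose from -5.60 to -2.53, Mixl1 from -7.22 to -5.74 and Gata6 from -6.52 to -5.81. Gata4 fell from -2.99 to -4.66 and Afp from -6.63 to -7.24. Between 52.4% and 60.2% of the 55681 probes were well above background on each array, and 0 spots were saturated. For scale, probes printed 10 times on each array had a spot-to-spot SD of D of 0.21 in ES, 0.37 at ELA, 0.31 at NPC and 0.24 at NPC/Neu. This SD covers the array surface only, not the cells or the precipitation.

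The widest pair was that of Kdm5b, a histone lysine demethylase of the KDM family. Its high probe lies in the 3′ UTR, 438 bases before the annotated end of the transcript, at chr1:136528957-136529016 on the plus strand (mm9). Its low probe lies 25841 bases upstream, at chr1:136503116-136503175, within an intron of the transcript with the longest coding sequence and in the 3′ UTR of a shorter annotated isoform. The start of each probe (the first 30 of 60 bases) is shown for 4 pairs, since these stretches are what each E value refers to. For 3 of the low probes, the genomic stretch around the first run of 8 A past the probe is added. That run is in capitals. In Foxp1 and Btg1 the stretch begins inside the probe, because the run lies close to the probe's end.
Kdm5b high probe: gaccagagccagtcctttaagccatgttct
Kdm5b low probe: ggaagtttagtagggatgtttgtgagtgct
Kdm5b after the low probe: ataaatccatcAAAAAAAAaaaagaagtga
Foxp1 high probe: tttacaggcttccatggctgagaatagtat
Foxp1 low probe: tgtgcctgcattttcttttataatgaaggg
Foxp1 after the low probe: aaaagaagaagAAAAAAAAaaaaaagaaat
Btg1 high probe: gagtctttcccacaaaccaccatctatttt
Btg1 low probe: gcagctttaaatcagtcggatttatgaata
Btg1 after the low probe: aaacaggaattAAAAAAAAaaaaagacacc
Eif2c2 high probe: catgaaagccacaccatttccattggggtt
Eif2c2 low probe: acgagccttctcttgtgtgctgctctgtgc

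The stretch after the Kdm5b low probe is chr1:136503358-136503387, and its A run begins 193 bases past the probe, the same distance at which the shorter isoform is annotated to end. The Foxp1 low probe is at chr6:98956679-98956738 and the stretch with the run at chr6:98956657-98956686, both on the minus strand. That run begins 3 bases past the probe. The Foxp1 high probe spans an exon junction between chr6:98885382 and chr6:98889719. The Btg1 probes are at chr10:96082071-96082130 and chr10:96085358-96085417 on the plus strand, the run beginning 1 base past the low probe (chr10:96085408-96085437), and those of Eif2c2 at chr15:72936863-72936922 and chr15:72935705-72935764 on the minus strand.

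In signal scaled to a common 75th percentile, the Kdm5b high probe read 18982 in ES Ago–RNA and 3598 in ES total RNA, then 6542 and 4628 in ELA, 6287 and 2130 in NPC, and 9793 and 2495 in NPC/Neu. The low probe read 95.8 and 1817 in ES, 352 and 1445 in ELA, 258 and 2023 in NPC, and 291 and 2462 in NPC/Neu. The high probe was thus brighter in Ago–RNA than in total RNA at every stage, and the low probe dimmer at every stage. E of the high probe was 2.40, 0.50, 1.56 and 1.97 in ES, ELA, NPC and NPC/Neu, and E of the low probe -4.25, -2.04, -2.97 and -3.08. D was 6.64 in ES, 2.54 at ELA, 4.53 at NPC and 5.06 at NPC/Neu. A further 3′ UTR probe followed the high probe after ES, with E of 1.26, 0.46, 1.62 and 2.02. The fourth Kdm5b probe, within an intron of the main transcript and in the 3′ UTR of another short isoform, went from -1.70 in ES, -1.64 in ELA and -1.23 in NPC to 0.43 in NPC/Neu. The plot of single probes shows these values beside those of 5 other genes.

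**Figure D1:**
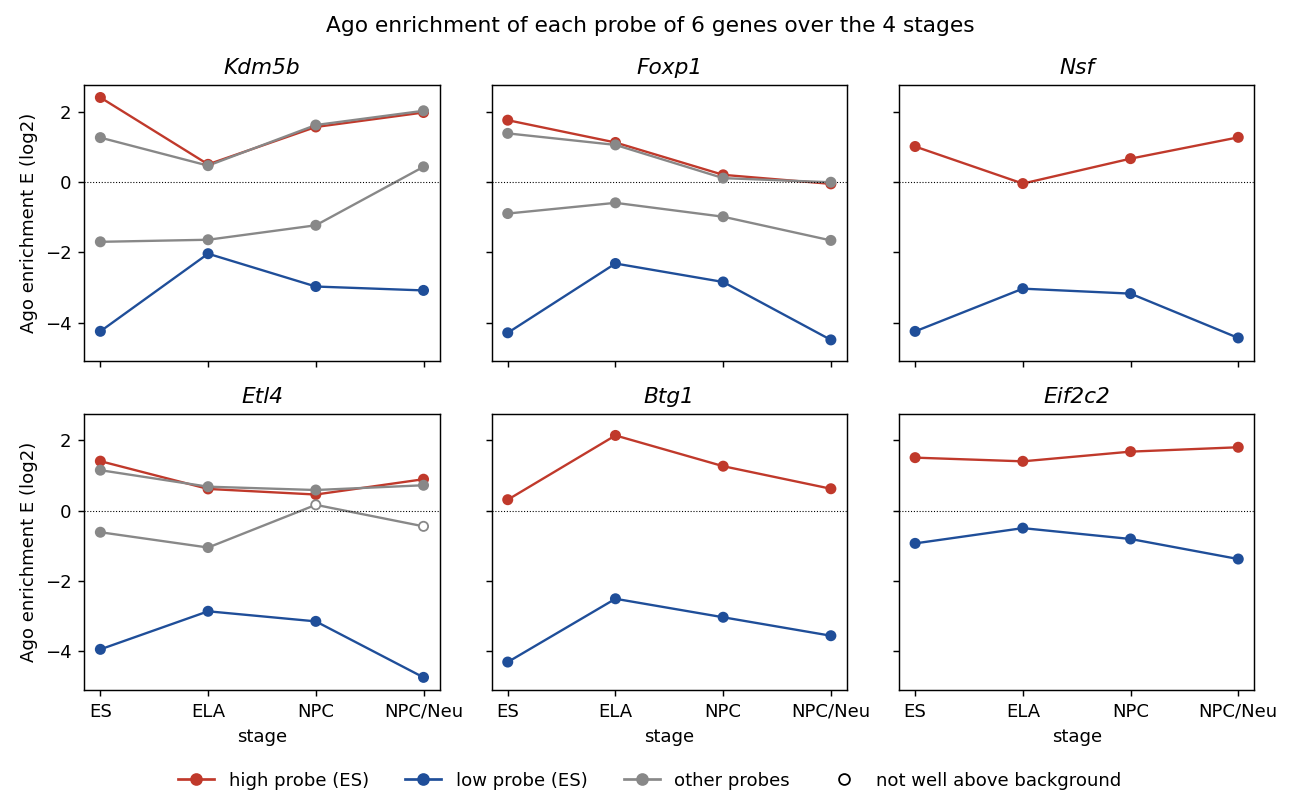
Ago enrichment E (y axis, log2 of Ago–RNA over total RNA after scaling) of every detected probe of 6 genes at the 4 stages (x axis), 1 array per condition. The low probe (blue) lies below the high probe (red) at every stage in all 6 genes, with D of Kdm5b from 2.54 to 6.64, and the other probes (grey) follow the high probe or lie between.

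The pairs chosen in ES cells were read on the 6 arrays of the later stages, which the rule had not used. A pair was measured where both probes were well above background on both arrays of the stage. In ELA, 128 of the 150 pairs were measured, and the median D was 1.40 (quartiles 0.82 and 2.24), against 0.12 over the 3804 pairs measured among all genes. D was at least 1 in 89 of the 128 pairs, where the background over all genes was 8.25%, and -1 or lower in 0, where it was 1.13%. In NPC, the median was 1.86 over 123 pairs against 0.11 over all genes, with 99 pairs at 1 or more (background 8.33%) and 2 at -1 or lower (1.08%). In NPC/Neu, it was 2.44 over 118 pairs against 0.22, with 100 pairs at 1 or more (18.0%) and 1 at -1 or lower (1.99%). With every pair counted, also those near background, the medians were 1.60, 1.87 and 2.59.

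D kept its sign in most pairs. Of 107 pairs measured on all 8 arrays, 64 had D of at least 1 at each of the 3 later stages (background 3.31% of 3536 genes). D was above 0 at each of these 3 stages in 98 pairs (background 42.0%). It lay between -1 and 1 at all 3 in 5 pairs, against 2662 of the 3536 genes. In these 107 pairs the median E of the low probe was -2.31 in ES, -0.90 at ELA, -1.64 at NPC and -1.89 at NPC/Neu. That of the high probe was 0.82, 0.32, 0.35 and 0.44. The probes of most pairs thus lay closer to each other in ELA than in ES. E of the low probe was lower in ELA than in ES in 7 of 107 pairs, against 1384 of the 3536 genes. E of the high probe was lower in 71 of the pairs, against 2012 of those genes. The median D of the 3536 genes also fell, from 0.34 in ES to 0.12 at ELA. D was wider in NPC/Neu than in ELA in 83 of the 107 pairs, against 2031 of the 3536 genes. The ES values chose the probes, and the part of this choice in the difference between ES and the later stages was not tested.

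**Figure D2:**
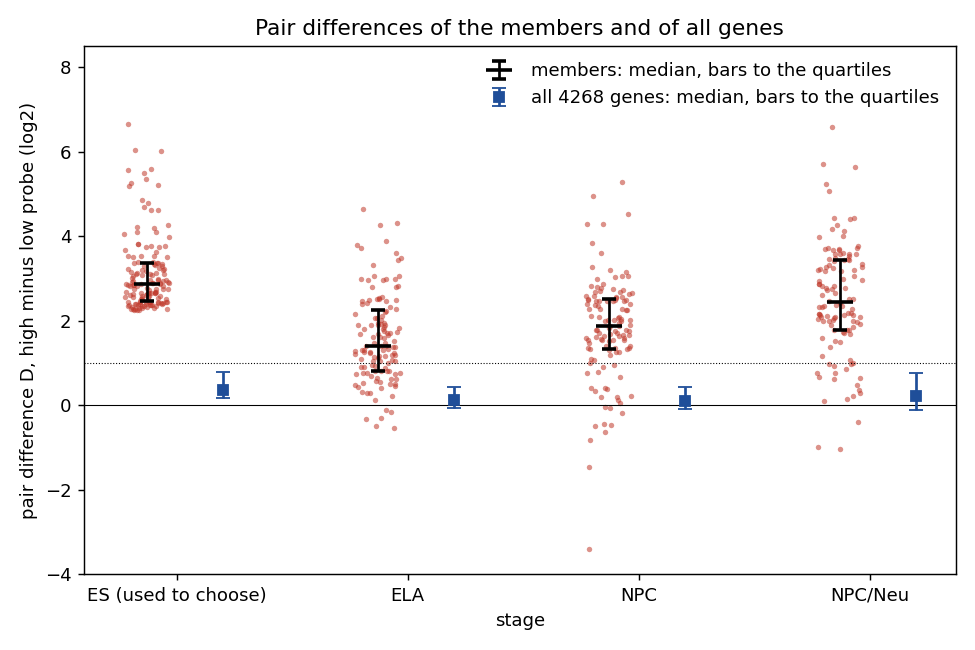
Pair difference D, high minus low probe (y axis, log2), of the members (red points, 1 per measured pair) at the 4 stages (x axis), with the median and quartiles of the members (black) and of all 4268 genes (blue). The members' median was 1.40 at ELA, 1.86 at NPC and 2.44 at NPC/Neu, and that of all genes 0.12, 0.11 and 0.22; the dotted line marks D of 1.

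Most member pairs that were not measured at a later stage lost the low probe in Ago–RNA, alone or together with another reading. In NPC/Neu, 32 pairs were not measured, and the low probe was not well above background on the Ago–RNA array in 25 of them. The same held for 24 of 27 in NPC and 15 of 22 in ELA. This was the only reading lost in 18 of the NPC/Neu pairs, 16 of the NPC pairs and 10 of the ELA pairs. The high probe was lost in total RNA in 5, 7 and 8 pairs of these stages. Among all 4268 genes, 499 pairs were not measured at NPC/Neu, 463 at NPC and 464 at ELA. Which reading they lost was not counted, so the member counts by reading have no background. Low probes were chosen by their low E in ES, and the part of this choice in the losses was not tested. Low probes of the members were often dim in Ago–RNA. On the NPC/Neu Ago–RNA array, 51.3% of them fell in the lowest 25% of detected probes, against 18.7% on the NPC/Neu total RNA array. For the low probes of all genes, the shares on these arrays were 23.6% and 22.7%. On the ES Ago–RNA array, which the rule used, the share was 50% for the members' low probes and 14.5% for those of all genes.

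Where the probes lie was described on GENCODE transcripts of the same build, by exact match. On the transcript with the longest coding sequence, the low probe of 63 members (42%) lay in an intron, against 226 low probes (5.30%) over all genes and 3 high probes (2%) of the members. Without the members, it was 163 low probes (3.96%). The high probe lay in the 3′ UTR in 91 members and in the coding sequence in 31, the low probe in 33 and 24. The most frequent pairing, in 43 members, was a high probe in the 3′ UTR with a low probe in an intron, followed by 22 with both in the 3′ UTR. When every annotated isoform was counted, 28 low probes of the members (18.7%) were classed as intronic, against 2.51% over all genes. Of the 63, 21 stayed intronic, 30 lay in the 3′ UTR of another isoform and 6 in an isoform annotated as a retained intron. Of the 63 probes, 32 carried the accession of a cDNA clone with the prefix AK, the only clone prefix counted. Over all members this was so for 44 low probes (29.3%) and 2 high probes, against 3.28% of all low probes.

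**Figure D3:**
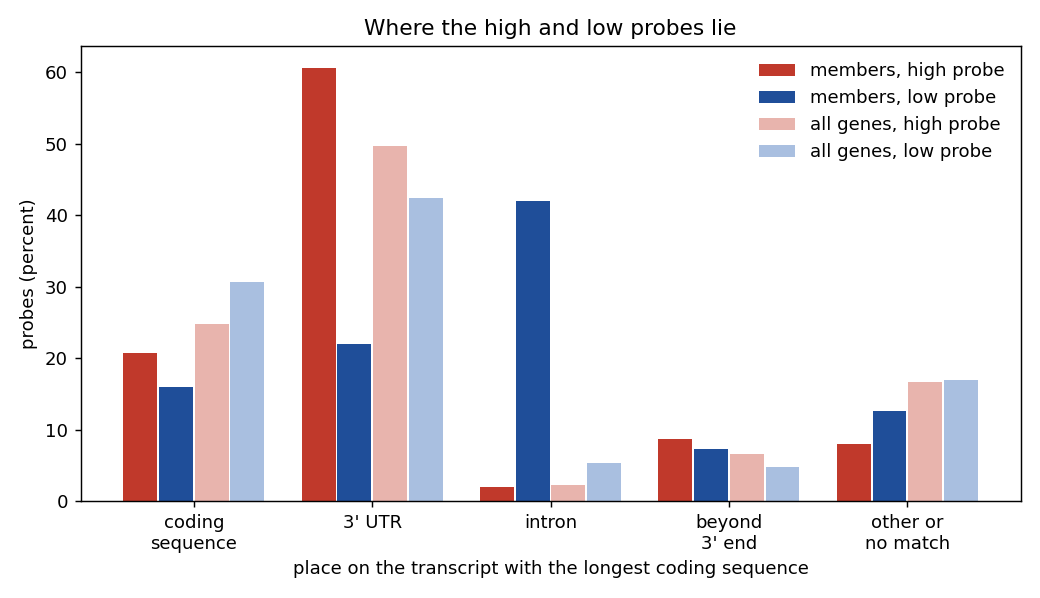
Share of probes (y axis, percent) by place on the transcript with the longest coding sequence (x axis), for high and low probes of the 150 members and of all 4268 genes. Introns held 42% of the members' low probes, 2% of their high probes and 5.30% of all low probes.

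In transcript order, the high probe lay on either side of the low probe. Both probes lay on 1 annotated transcript in 55 members, and the high probe was nearer the 5′ end in 25 of them (45.5%, 95% Wilson interval 33.0 to 58.5, counting error only), against 42.2% over all genes. Along the genome, with introns included, 148 pairs lay on 1 strand, and the low probe came first in 107 (72.3%), against 58.6% over all genes. The median distance along the genome was 9119 bases, against 1979 over all genes. Between the probes of the 55 pairs, 43 (78.2%) had a polyadenylation signal word, AATAAA or ATTAAA on the transcribed strand, against 66.6% over all genes, and the median distance on the transcript was 2336 bases against 1010.

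Runs of A were frequent after the low probes. AAAAAAAA on the transcribed strand, within the 300 bases of genome after the probe, followed 53 low probes (35.3%) and 20 high probes (13.3%), against 11.0% of all low and 10.2% of all high probes. Among the 63 intronic low probes, 29 (46.0%) had one, against 24.8% of all intronic low probes, which include these 63. Among intronic low probes of non-members, 16.6% had one. In 19 of the 53 members (35.8%), an annotated transcript ended within 10 bases of the run, against 55 of the 467 low probes with a run over all genes (11.8%). The labelling kit copies RNA from an oligo(dT) primer, and the part of such runs in the total RNA signal was not tested. The polyadenylation words followed 41.3% of the low and 50% of the high probes, against 37.4% and 44.5%. Base composition was alike, with a median GC content of 41.7% in high and low probes.

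The place and the A run moved with D at the later stages. With the low probe in an intron, the median D was 1.85 in ELA (50 pairs), 2.34 in NPC (48) and 2.90 in NPC/Neu (46). With the low probe in the 3′ UTR it was 1.31, 1.57 and 2.24, and in the coding sequence 1.09, 1.27 and 1.96. Pairs whose low probe had a run of 8 A after it had medians of 2.24, 2.47 and 3.42, and those without 1.19, 1.62 and 2.14. The quartiles of these groups overlapped at every stage, and the groups share members. In ELA the overlap by A run was slight, with a lower quartile of 1.692 with the run and an upper quartile of 1.693 without. The groups already differed in ES, whose values chose the pairs. There the median D was 3.22 with the run and 2.73 without, and 2.99 for introns, 2.68 for the 3′ UTR and 2.50 for coding sequence. Over all detected probes of the 4268 genes, those in introns had a median E of -0.45 in ES, -0.25 at ELA, -0.24 at NPC and -0.29 at NPC/Neu, and those in the 3′ UTR 0.20, 0.06, 0.14 and 0.32. Total RNA came from whole cells and Ago–RNA from the cytosol, so retention in the nucleus and absence of Ago cannot be told apart at the low probes.

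**Figure D4:**
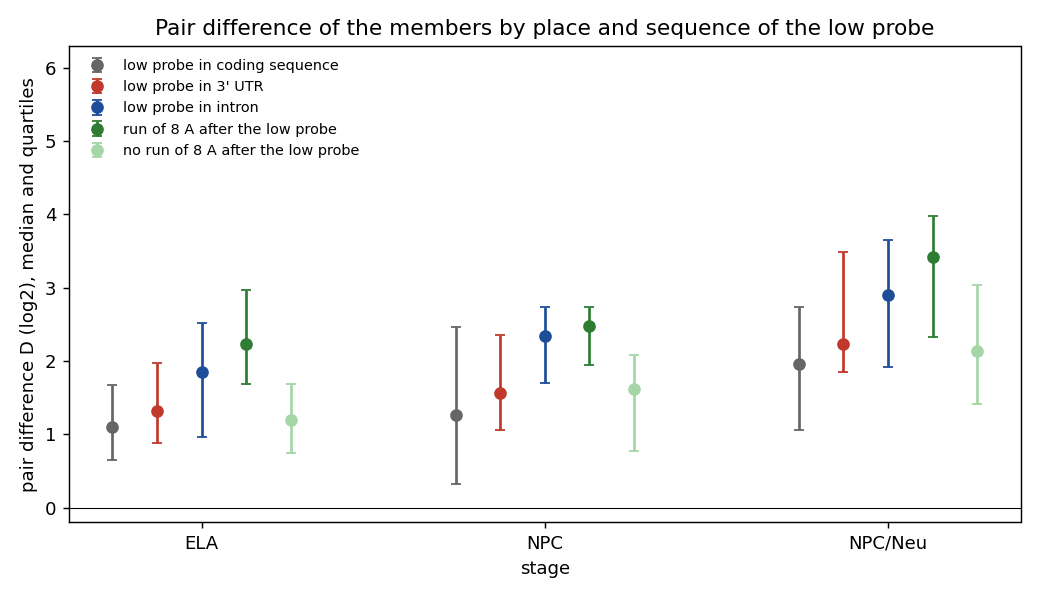
Median pair difference D of the members (y axis, log2, bars to the quartiles) at ELA, NPC and NPC/Neu (x axis), by the place of the low probe and by a run of 8 A in the 300 bases after it. Medians with the run were 2.24, 2.47 and 3.42, and without it 1.19, 1.62 and 2.14, with quartiles that overlapped, in ELA only slightly.

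Of the 12 widest pairs, Foxp1, a forkhead transcription factor, had D of 6.04, 3.44, 3.04 and 4.43 over the 4 stages, with E of its low probe between -4.49 and -2.32. In Sec16a, which organizes exit sites of the endoplasmic reticulum, D was 6.03 in ES and 3.73 in ELA, and the low probe was not well above background in Ago–RNA thereafter. Ect2, a guanine nucleotide exchange factor needed in cytokinesis, had D of 5.49 in ES and 3.61 in ELA. Its low probe crosses the edge of an exon. Nsf, the ATPase that takes SNARE complexes apart, had D of 5.25, 2.99, 3.84 and 5.70, and its low probe lay in a retained intron isoform. Plcb4, a phospholipase C, had D of 4.86, 2.98, 3.07 and 4.40, with the low probe upstream of the transcript with the longest coding sequence. Etl4 was the only one of the 12 in which both probes lay on 1 transcript, with D of 5.35, 3.48, 3.60 and 5.63 and the low probe in coding sequence, 9 bases before an A run. The others were Cyp20a1 (D 5.22 in ES, 4.27 in ELA), Casz1, a zinc finger factor (5.19 in ES, 3.28 in NPC, 5.23 in NPC/Neu), Prcp, a carboxypeptidase (4.79, 3.80, 2.39 and 3.47), and a gene known only by a clone name. Of the 12 low probes, 11 had a run of 8 A within 300 bases.

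The 6 pairs with the highest minimum D over the later stages were Btg1 (4.18), Etl4 (3.48), Foxp1 (3.04), Xpo7 (3.03), Nsf (2.99) and Plcb4 (2.98). In Btg1, an antiproliferative factor that binds the deadenylase complex, both probes lay in the 3′ UTR, the high probe 3317 and the low probe 30 bases before its annotated end. The Btg1 high probe read 11175 in Ago–RNA and 9022 in total RNA in ES, 54324 and 12369 in ELA, 55335 and 23091 in NPC, and 44763 and 29130 in NPC/Neu. The low probe read 41.1 and 812, 346 and 1965, 361 and 2951, and 399 and 4696 on the same arrays. E was between 0.31 and 2.13 at the high probe and between -4.31 and -2.51 at the low probe, so the values did not overlap over the stages. Xpo7, a nuclear transport receptor, had the same layout, with probes 8001 and 32 bases before the end, and D of 3.77, 3.31, 3.03 and 4.44. In its case no run of 8 A followed the low probe.

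Eif2c2, the gene of Ago2 itself, was a member at rank 117. Both probes lay in its 3′ UTR, the high probe 1158 bases nearer the 5′ end. The high probe read 26161 and 9225 in Ago–RNA and total RNA in ES, 26119 and 9904 in ELA, 22115 and 6928 in NPC, and 24089 and 6924 in NPC/Neu. The low probe read 1039 and 1984, 1904 and 2691, 1464 and 2562, and 1194 and 3103. E was thus positive at every stage by the high probe (1.50, 1.40, 1.67 and 1.80) and negative at every stage by the low probe (-0.93, -0.50, -0.81 and -1.38). Neither probe matched a transcript of another gene, and no A run followed the low probe. Of 4 genes of the Argonaute and miRNA pathway list with at least 2 detected probes, it was the only member. That share is 25%, against 3.51% of all genes, and rests on few genes.

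Chromatin regulators, the gene families compared in the study, gave 2 members. Of 34 genes of the HDAC, KDM, DNMT, HAT, HMT, SWI/SNF, PRC1 and PRC2 families with at least 2 detected probes, 2 were members (5.88%), against 3.51% of all genes, and their median range was 0.37, against 0.37 over all genes. By family, the median range ran from 0.11 in HDAC (3 genes) to 1.02 in DNMT (1 gene), with 0.67 in KDM and 0.55 in SWI/SNF. The members were Kdm5b, 1 of 5 KDM genes, and Arid1b, a SWI/SNF subunit and 1 of 13 genes of that complex. In Arid1b, the 3′ UTR probe and a coding probe near the 3′ end stayed together, with E of 1.70 and 1.43 in ES and of 1.92 and 1.91 in NPC/Neu. The low probe, in coding sequence 9441 bases before the end of the transcript, read -0.60, -0.42, -0.09 and -1.03. Its signal was at most 153 on any array, near the dim end of the scale.

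Of 7 listed nuclear, imprinted or snoRNA-host RNAs with at least 2 probes, Mirg and Gas5 were members (28.6%, against 3.51% of all genes). Mirg hosts an imprinted miRNA cluster, and its E was -2.34, -1.30, -1.61 and -1.74 at the high probe and -4.74, -2.52, -3.27 and -3.82 at the low probe. Gas5, a snoRNA host, had 3 probes. The one 3 bases from the 3′ end read -2.44, -0.64, -1.10 and -1.38, and the others were lower at each stage, down to -4.79, -2.02, -2.98 and -4.10. Of 33 splicing and RNA-binding factors, Srsf11, a serine/arginine-rich splicing factor, was the only member (3.03%, against 3.51% of all genes). Its low probe, in an intron of the main transcript, had E of -3.03 in ES and 0.68 in ELA, where D was -0.16, and D was 1.79 in NPC. Of 8 genes listed for known alternative 3′ ends, 0 were members, against 3.51% of all genes. Their median range was 0.77, against 0.37 over all genes. With 8 genes, a count of 0 cannot be told apart from that share.

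There were 64 members with 3 or more detected probes (42.7% of the members, against 17.6% of all genes), with 85 probes between the extremes. In ES, whose values chose the members and the extremes, 73 of these were nearer the high probe (85.9%, against 57.0% over all genes), in 52 genes all of them, which is a description of the choice. At the later stages, among probes measured together with both extremes, 55 of 68 were nearer the high probe in ELA (80.9%, against 53.9% over all genes), 55 of 64 in NPC (85.9%, against 53.3%) and 49 of 64 in NPC/Neu (76.6%, against 55.6%). A range grows with the number of probes, so part of the share of such genes follows from the rule.

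Some pairs closed or turned after ES. The 6 with the lowest later D, among pairs measured on all arrays, were Tmed5 (-1.47 in NPC), Yipf6 (-1.03 in NPC/Neu), Krtap5-1 (-0.99 in NPC/Neu), Dvl2 (-0.83 in NPC), Ufm1 (-0.50 in NPC) and Tmem167 (-0.44 in NPC). Membership of Krtap5-1, a keratin-associated protein, rests on 1 spot. Its low probe read 8748 in ES total RNA against 420 to 608 in total RNA of the later stages, that spot was flagged as non-uniform, and the probe also matched another gene. In Tmem167, both probes lay in the 3′ UTR, and E of the high probe was 1.44, 1.03, -0.84 and -0.87 while that of the low probe was -1.60, -0.29, -0.41 and -0.47. In Ufm1, a ubiquitin-like modifier, and Dvl2, a transducer of Wnt signals, no spot of the pair was flagged, and D was 0.28 and -0.30 in ELA.

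The probes of a member also disagreed in total RNA over the stages, a measure for which the rule had used no array. From ELA to NPC, the log2 change in total RNA at the high and the low probe differed by a median of 0.60 over 132 members, against 0.23 over 3724 genes. The difference was at least 1 in 34 members (25.8%), where the background was 11.4%. From NPC to NPC/Neu it was 0.48 over 136 members against 0.17 over 3840 genes, and at least 1 in 17 members (12.5%, background 4.95%). The Spearman correlation between the changes at the 2 probes, across genes that share the same arrays, was 0.35 and 0.31 over the members, against 0.73 and 0.74 over all genes. The changes had opposite signs in 50 members from ELA to NPC (37.9%, against 20.2% of all genes). Opposite changes of at least 0.5 at both probes were found in 6 of the 132 members, against 99 of the 3724 genes.

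**Figure D5:**
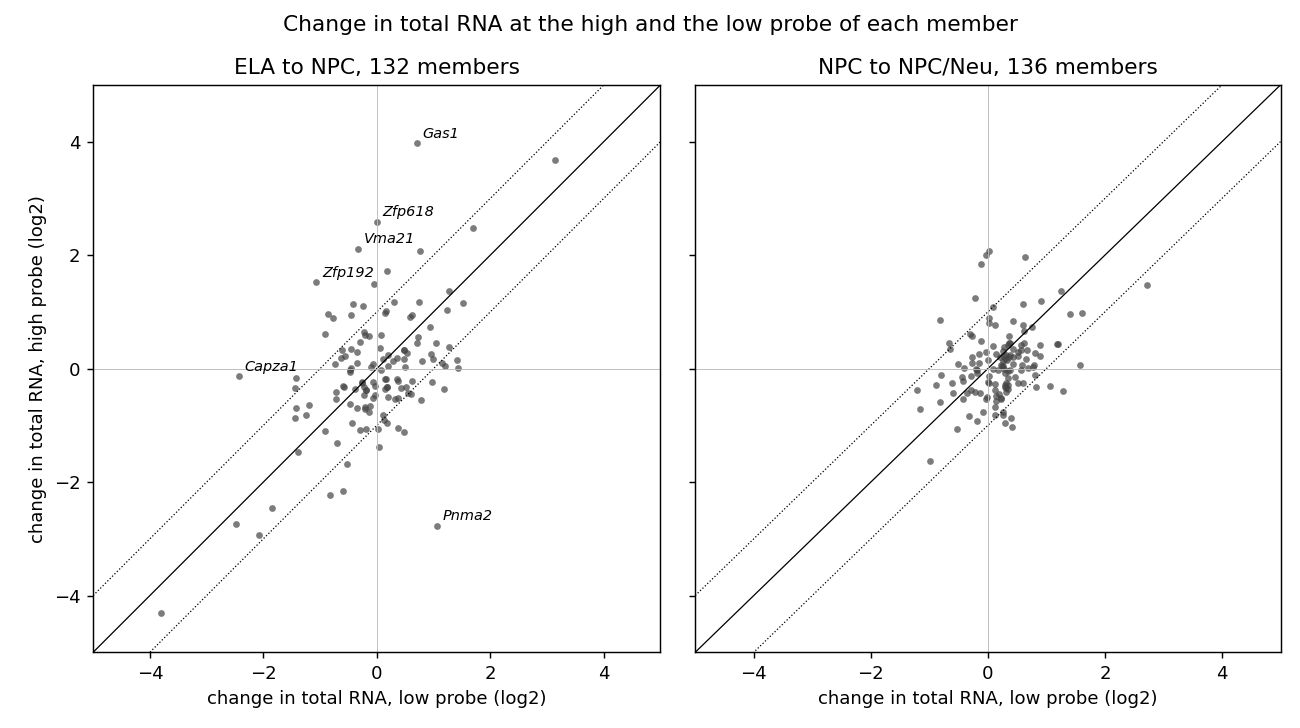
Change in total RNA (log2) at the low probe (x axis) and the high probe (y axis) of each member, from ELA to NPC (132 members) and from NPC to NPC/Neu (136 members). The solid line marks equal change and the dotted lines a difference of 1; the 6 members named are those with the largest difference from ELA to NPC, among them Pnma2 and Gas1.

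The 6 largest such differences from ELA to NPC were in Pnma2, Gas1, Zfp192, Zfp618, Vma21 and Capza1. In Pnma2, a neuronal antigen, total RNA at the 3′ UTR probe was 7797 in ELA and 1146 in NPC, a log2 change of -2.77, while at the coding probe it was 3572 and 7484, a change of 1.07. Its Ago–RNA at the coding probe was 2531 and 1180, so that E there was -0.50 in ELA and -2.66 in NPC. In Gas1, a membrane protein that binds Hedgehog, total RNA at the 3′ UTR probe was 430 in ELA and 6773 in NPC, a change of 3.98, and at the coding probe 446 and 729, a change of 0.71. The direction was shared in Gas1 and opposite in Pnma2. For Zfp618, a zinc finger gene, total RNA changed by 2.59 at the coding high probe and by 0.01 at the intronic low probe, and for Zfp192 by 1.52 at the 3′ UTR and -1.06 at the intronic probe. In Vma21, an assembly factor of the vacuolar ATPase, the change was 2.12 at the high and -0.33 at the low probe, and in Capza1, an actin capping subunit, -0.14 and -2.42. The low probe of Vma21 and the high probe of Capza1 also matched another gene.

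The ranges ran from 6.64 in Kdm5b to 2.26 in Sec24a, with a median of 2.87 against 0.37 over all genes. The last genes inside the limit were Tmem194 (2.26), Cbx1 (2.26) and Sec24a (2.26), and the first outside were Map3k14 (2.25), Acp1 (2.25) and Fsd1l (2.24), so no gap separates members from other genes. At the later stages Sec24a, of the COPII coat, had D of 1.12, 0.89 and 2.14, and Cbx1, a heterochromatin protein, 0.75, 1.72 and 2.01.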

How the data were processed

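Per the file headers, the deposited spot intensity of each one-color Agilent array came from Feature Extraction 10.7.3.1, with a background-corrected processed intensity, and the array design is annotated on mm9. The submitters' processing notes name Feature Extraction 9.1 and limma. The deposited intensity was not normalized between arrays. Spots were averaged by probe, and log2 values were set against the 75th percentile of each array, which leaves D unchanged. Flags in the files (unit other) gave the probes well above background. Probes were matched exactly to NCBIM37 and GENCODE vM1. The authors' methods name limma's background correction and quantile normalization without the correction's kind; normexp with quantile normalization was run as an alternative in limma 3.58.1 under R 4.3.3; other steps used Python 3.11.15, numpy 2.4.6 and pandas 2.3.3. With 1 array per condition there is no test, and precision is limited by how few arrays there are. The members and gene lists were chosen with earlier results of these data known. Genes are named by rule: Kdm5b, the 12 widest ranges, members of the lists, the 6 highest and 6 lowest later D among pairs measured on all 8 arrays, the 6 largest differences in total RNA change, and 3 on each side of the limit, of which 1 gene is not reported here. The ranking of pairs was tested on simulated data.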

Additional observations from a re-analysis of the deposited data

Results flagged for a closer look

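In 3 members, D was at least 1 in ES cells and -1 or lower at a later stage where the pair was measured. Pairs with a probe not well above background at that stage were not counted. These are single arrays, so the difference between stages was not tested. In Marveld1, a membrane protein gene, D was -3.41 in NPC, where its intronic low probe read 3922 in Ago–RNA against 7.58 to 62.8 on the other Ago–RNA arrays. In Tmed5, a cargo receptor of the early secretory pathway, D was -1.47 in NPC, where the low probe read 233 in Ago–RNA against 35.2 in ES. The single spot behind each of these 2 values was flagged as non-uniform by the scanner software. In Yipf6, a Golgi membrane protein, D was -1.03 in NPC/Neu with no flagged spot, as E of its high probe was 0.86, 0.29, -0.94 and -1.87 over the stages and that of its low probe -1.95, -0.65, -1.12 and -0.85. A further 3′ UTR probe of Yipf6 stayed at 0.63, 0.76, -0.17 and 0.22.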

How the results depend on the processing

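No paired analysis was possible because each condition has 1 array, and for the same reason no replicate could be left out. D of the members stayed above 0 in the median under every alternative run. With normexp and quantile normalization the median was 1.49 in NPC and 2.02 in NPC/Neu (offset 50) and 1.49 and 2.09 (offset 16). Chosen after seeing the data, pairs with both probes in exons of the transcript with the longest coding sequence had a median of 1.54 in NPC, with 29, 33 and 37 pairs at D of at least 1 in ELA, NPC and NPC/Neu (of 45, 46 and 44), and pairs whose low probe lay outside introns had 52, 58 and 61 (of 78, 75 and 72). Genes with exactly 2 detected probes gave 52, 57 and 55 (of 75, 71 and 66). These counts rest on fewer pairs. Over all measured member pairs, D was at least 2 in 39 of 128 in ELA, 56 of 123 in NPC and 80 of 118 in NPC/Neu. The share over all genes at this threshold was not counted. The high probe came first in 45.5% of pairs in transcript order and in 27.7% along the genome, where introns count. Of the 150 members, 109 were also members under normexp and quantile normalization, 125 with the processed signal quantile normalized, 110 with probes well above background on all 8 arrays, 101 among genes with all probes in annotated exons, and 147 without flagged spots. Of the values under alternatives, 68 stayed within the spot-to-spot SD or 1.5 times the count and 17 did not. Low probes in Ago–RNA lay near background, which limits how precisely D is known there.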

Other observations

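The rule needs a detected probe in ES Ago–RNA, and genes whose low probe fell below background there were left out. Another 60 genes, not members, had a probe well above background in ES total RNA but not in ES Ago–RNA, and a second, detected probe with E at least 2.26 higher than the upper bound of the first. That bound used the lowest signal among probes well above background on the ES Ago–RNA array, or the probe's own signal where it was higher. The widest was Brd1, a bromodomain protein of a histone acetyltransferase complex, with a D of at least 6.58, near the 6.64 of Kdm5b.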
